A study of Rattus norvegicus with 6 samples.

Results

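Chromosome 19 of the rat was examined because its mean methylation ratio was the highest of the 20 autosomes on an array that measures DNA captured by its methylation. The array carried 172669 probes with a genome position, of which 4309 lay on chromosome 19, between positions 44242 and 59213128 of the rn4 assembly. Probes lie in clusters, and a run of probes whose starts were at most 1000 bp apart was taken as a tile. Chromosome 19 held 404 such runs. In 397 of them at least 3 probes had input DNA well above background on every array, out of 16001 such tiles in the series, and the other 7 were left out. After the filters on dim and outlying spots 3309 probes remained on chromosome 19, which is 76.8% of its probes against 76.4% on the other autosomes. They made up 392 tiles, compared below with 14804 tiles on the other 19 autosomes. Of the 397 tiles, 5 were lost because of outlying spots.

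The samples were ovarian granulosa cells from female Sprague Dawley rats of the F1 generation, taken at postnatal day 56 by puncturing follicles. The dams of the 3 control samples received water by gavage, 0 mg/kg cadmium chloride, and the dams of the 3 cadmium samples received 8 mg/kg body weight of cadmium chloride on gestation days 1 to 21. The offspring of both groups were breastfed. The labels also speak of sequencing, whereas the deposited files are array scans. The labels call the 3 samples of a group biological replicates, without saying whether an array held DNA of 1 animal, of a pool or of littermates, so the p-values below cover only how far these samples lie apart, which may be technical. The granulosa identity could not be checked, because markers of cell types are transcripts and these arrays measure DNA whose positions are not paired with gene names here.

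Granulosa cells surround the oocyte, respond to follicle stimulating hormone and make oestradiol. DNA methylation in mammals is placed mostly on cytosines that precede a guanine, the CpG dinucleotide. In methylated DNA immunoprecipitation an antibody against methylated cytosine pulls down fragments, so a fragment is captured more the more methylated CpGs it carries. Dense groups of CpGs at promoters, called CpG islands, are mostly unmethylated, whereas CpGs elsewhere are mostly methylated. The immunoprecipitated DNA carried the dye Cy5 and the input DNA the dye Cy3 on all 6 arrays, and the methylation ratio given below is log2 of immunoprecipitated over input signal, centred on the median of each array. A ratio above 0 means more capture than at the median probe of that array, and it is not a percentage of methylated cytosines. No dye-swapped array was among the 6, so a dye effect at a probe cannot be told apart from its capture. The array of cadmium sample 2 stood apart from the other 5 and was scanned alone. Control samples 1 and 2 shared a scan time with cadmium sample 1, and control sample 3 shared one with cadmium sample 3; these are called scan batches below. Several results that rest on cadmium sample 2 are given with and without it.

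The probe letters and an rn4 genome were not used here, so no sequence is shown for the tiles and none was assigned to a gene. To show what a range of CpG density looks like on chromosome 19, 2 RefSeq promoters of 300 bases each are printed, 250 bases before and 50 after the start of the gene, from the GRCr8 assembly. They were not matched to tiles, since the assemblies differ. Capitals mark CG, which reads the same on both strands. Mt1 encodes a metallothionein, a small protein that binds cadmium and zinc, and its promoter lies on the minus strand at chr19:10832926-10833225. It holds 27 CG, and 14.3% of autosomal promoters hold at least as many. Tat encodes tyrosine aminotransferase, an enzyme of tyrosine breakdown in liver, and its promoter lies on the plus strand at chr19:54856354-54856653. It holds 5 CG, and 62.5% of autosomal promoters hold at least as many.
Mt1: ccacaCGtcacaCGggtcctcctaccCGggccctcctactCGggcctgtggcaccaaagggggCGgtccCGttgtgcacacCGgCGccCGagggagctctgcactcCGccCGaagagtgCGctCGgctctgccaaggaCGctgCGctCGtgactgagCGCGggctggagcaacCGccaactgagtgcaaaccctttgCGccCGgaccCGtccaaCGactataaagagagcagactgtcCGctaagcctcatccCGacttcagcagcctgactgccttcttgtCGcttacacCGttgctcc
Tat: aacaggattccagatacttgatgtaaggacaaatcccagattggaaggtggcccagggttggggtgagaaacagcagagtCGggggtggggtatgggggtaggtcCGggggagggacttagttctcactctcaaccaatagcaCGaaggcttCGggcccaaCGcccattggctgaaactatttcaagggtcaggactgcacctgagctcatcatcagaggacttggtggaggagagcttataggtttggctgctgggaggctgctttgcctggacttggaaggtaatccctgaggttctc

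Over all 1173 chromosome 19 promoters in that table, G+C content was 52.9%, the same to 3 digits as the 52.9% of the other autosomes, and the mean number of CG was 11.4 against 12.04. Of the chromosome 19 promoters, 36.5% held at least 10 CG, against 42.2% elsewhere. When genes with only a locus number for a name were left out, a choice made after these values were seen, 495 promoters were left with a G+C content of 59.1% against 55.9%, and chromosome 19 ranked 1 of 20. In that subset the mean number of CG was 19.1 against 15.5, and 68.9% against 57.4% held at least 10 CG. The order of chromosome 19 among autosomes thus depended on which gene models were counted, and these promoters are not the regions the array measured.

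The mean ratio over chromosome 19 tiles was 0.053 ± 0.064 (SD, n = 6 arrays), against -0.35 ± 0.034 over the tiles of the other autosomes. By array, chromosome 19 stood at 0.023, 0.055 and 0.090 in control samples 1 to 3 and at 0.088, -0.058 and 0.12 in cadmium samples 1 to 3. Cadmium sample 2 was the lowest and the only one below 0, and the ranges of the groups overlapped. The difference between chromosome 19 and the other autosomes was 0.40 ± 0.048 on the log2 scale, or 1.32-fold, and lay between 0.31 (cadmium sample 2) and 0.44. Without cadmium sample 2 it was 0.42. Chromosome 19 ranked highest of the 20 autosomes on each of the 6 arrays. These are the values that chose the chromosome, so they are given without a test. Chromosome 12 came next with 0.0094 ± 0.063, lower by 0.032 to 0.053 on the 6 arrays, then chromosome 16 with -0.14 and chromosome 10 with -0.16. The lowest autosome was chromosome 11 at -0.54. Different tiles carry different probes, so a level compared between chromosomes also holds whatever differs between the probes.

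**Figure D1:**
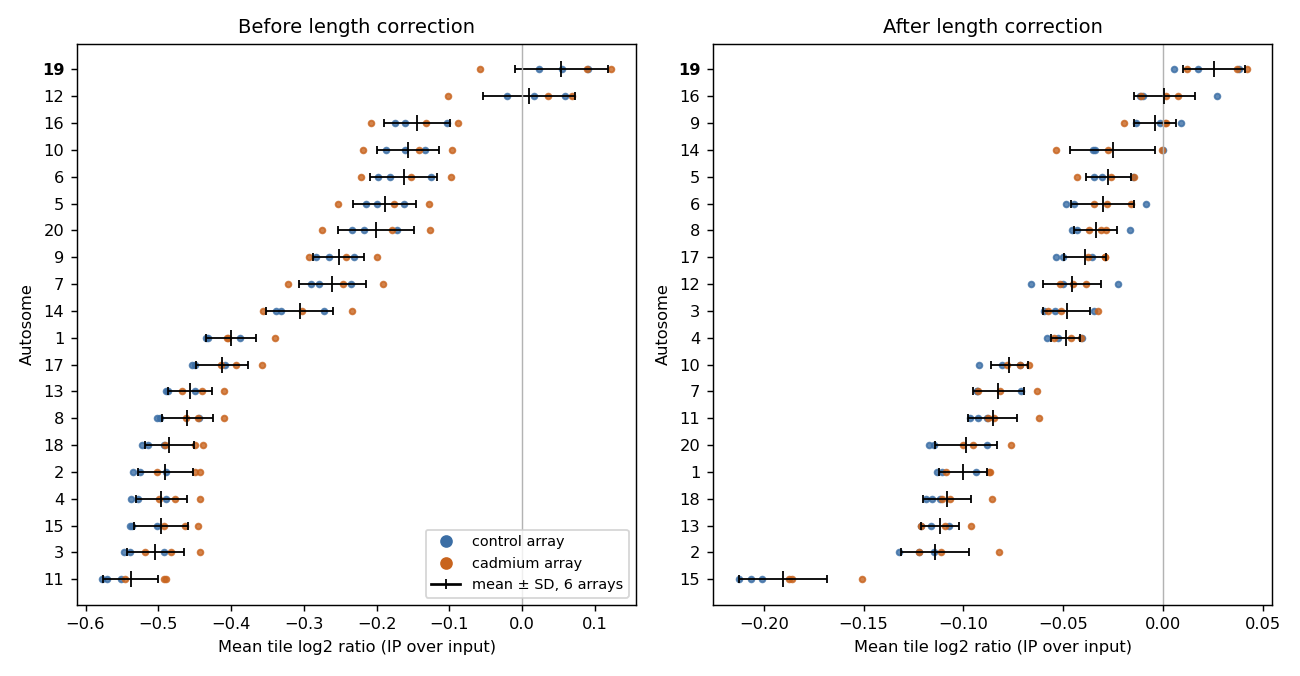
Mean methylation ratio (log2 immunoprecipitated over input) of each autosome, before and after correction for probe length, with points for the 6 arrays. Chromosome 19 is highest before the correction at 0.053 and after it at 0.026, and its lead over the other autosomes is smaller after it.

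The channels behind the ratio were not alike. In the immunoprecipitated channel chromosome 19 exceeded the other autosomes by 0.41 ± 0.020 (SD, n = 6), with a range of 0.39 to 0.43, and ranked 2 on all arrays after chromosome 12. In the input channel the difference was 0.0063 ± 0.045, from -0.034 to 0.091, and chromosome 19 ranked from 4 to 14. Chromosome 12 had a higher immunoprecipitated signal than chromosome 19, 0.35 against 0.29, and also a higher input signal, 0.26 against 0.15. The order of the 2 in the ratio was therefore the reverse of their order in captured DNA. The share of probes well above background in the immunoprecipitated channel was 81.1 to 84.5% on chromosome 19 and 74.4 to 78.0% on the other autosomes. No chromosome 19 spot was saturated.

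Much of the lead of chromosome 19 went with the length of its probes. Probes ranged from 45 to 60 bases, and the ratio was lower for longer probes, with a median over all kept probes of 0.95 at 45 bases and -2.49 at 60 bases. Of the kept chromosome 19 probes 57.8% had 45 bases against 47.9% elsewhere, a share exceeded only by the 59.3% of chromosome 12. Probes of 60 bases made up 5.62% on chromosome 19 and 11.7% on the other autosomes, rank 19 of 20. To compare probes of the same length, the median of all kept probes of that length on the same array was subtracted from each probe. This correction does not match probes by base composition, which was not checked.

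With this correction chromosome 19 stood at 0.0058, 0.018 and 0.038 in the control samples and at 0.037, 0.012 and 0.042 in the cadmium samples. Its mean was 0.026 ± 0.016 (SD, n = 6), against -0.069 ± 0.0092 for the other autosomes. The difference was 0.094 ± 0.011, or 1.07-fold, between 0.078 and 0.109 on the 6 arrays, which is 23.4% of the uncorrected difference. Chromosome 19 kept rank 1 on all 6 arrays, but the gap to the next autosome was 0.011 to 0.035. That neighbour was chromosome 16 on 5 arrays, at 0.00076 on average, and chromosome 9 on control sample 2, at -0.0039 on average. Chromosome 14 followed at -0.025, and chromosome 12, which was next before the correction, stood at -0.046 and ranked 9. Taking a mean over probes in place of tiles lowered the corrected difference to 0.051 and gave chromosome 19 rank 3.

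After length correction the lead lay on the input side of the ratio. The immunoprecipitated signal of chromosome 19 exceeded that of the other autosomes by 0.027 ± 0.0046, and it ranked 4. The input signal was below that of the other autosomes, at -0.066 ± 0.015, from -0.077 to -0.038, with ranks from 16 to 20. Before the correction the input difference was 0.0063, so the correction changed which channel differed.

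Within classes of probe length, chromosome 19 was above the other autosomes mainly among the shorter probes. The 1911 probes of 45 bases averaged a ratio of 0.83 against 0.72, a difference of 0.11 ± 0.022 that had the same sign on 6 of 6 arrays. The 707 probes of 46 to 50 bases stood at -0.53 against -0.70, a difference of 0.18 ± 0.028, again on 6 of 6 arrays. The 361 probes of 51 to 55 bases stood at -1.49 against -1.47, with a difference of -0.019 ± 0.044 and 2 of 6 arrays higher. The 144 probes of 56 to 59 bases differed by 0.038 ± 0.030 with 6 of 6 arrays higher, and the 186 probes of 60 bases by -0.044 ± 0.056 with 1 of 6 higher. As with the level itself, these differences belong to the values that chose the chromosome and are a description. Classes other than 45 and 60 bases hold several lengths, so the mix of lengths within them may still differ. For example, the median over all kept probes was -0.14 at 46 bases and -1.14 at 50. The 2 shorter classes differed in channel. For 45-base probes the input was lower by a difference of -0.077 and the immunoprecipitated signal higher by 0.030, whereas for 46 to 50-base probes the figures were -0.0098 and 0.17. Among 45-base probes chromosome 16 was highest at 0.85, followed by chromosome 19 at 0.83 and chromosome 12 at 0.83, and among 60-base probes chromosome 19 ranked 16.

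**Figure D2:**
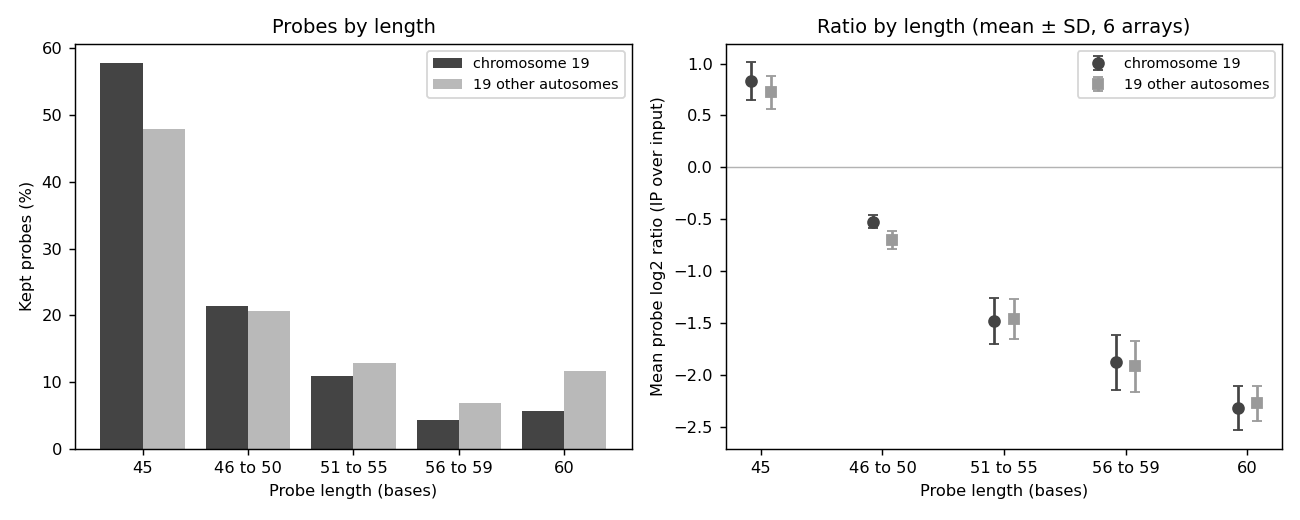
Share of kept probes (%) and mean methylation ratio (log2) by probe length class on chromosome 19 and on the other autosomes. The ratio is drawn as mean ± SD over the 6 arrays. The ratio is lower for longer probes in both, from 0.83 to -2.32 on chromosome 19, and chromosome 19 is above the others at 45 bases and 46 to 50 bases.

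Whole tiles were also grouped by the mean length of their probes, and there the largest difference was in the class with the longest probes. Tiles of 45 to 46 bases stood at 0.82 on chromosome 19 (97 tiles) and 0.69 elsewhere, a difference of 0.14 ± 0.022. Tiles of over 46 to 48 bases (150 tiles) stood at 0.21 against 0.073, a difference of 0.14 ± 0.023, and those of over 48 to 51 bases (108 tiles) at -0.45 against -0.49, a difference of 0.043 ± 0.017. The 37 tiles of over 51 bases stood at -1.13 against -1.44, a difference of 0.32 ± 0.029. All 4 differences were positive on 6 of 6 arrays. They are not corrected for length within a class, so the mix of lengths may still differ between chromosome 19 and the others. The last class had no upper bound, and the median over all kept probes was -1.21 at 51 bases and -2.49 at 60. Single probes of 51 to 55, 56 to 59 and 60 bases differed by -0.019, 0.038 and -0.044. The make-up of the chromosome differed too, since 24.7% of its tiles were in the shortest class against 16.9% elsewhere, and 9.44% in the longest against 23.2%.

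The lead came more from fewer low tiles than from more high ones. The 5th percentile of tile ratios was -1.55 on chromosome 19 and -2.12 elsewhere, a difference of 0.58. The median was 0.14 against -0.29, a difference of 0.43, and the 95th percentile 1.46 against 1.25, a difference of 0.21. The highest tile of the chromosome, at 2.10, was below the highest of the other autosomes, at 2.83, and its lowest tile at -2.47 was above their lowest at -5.46. After length correction the difference was 0.15 at the 5th percentile, 0.10 at the median and -0.025 at the 95th, so the upper tail was no higher than elsewhere. Of the 392 tiles 216, or 55.1%, had a mean ratio above 0 against 38.9% elsewhere, and after correction 212, or 54.1%, against 46.7%.

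**Figure D3:**
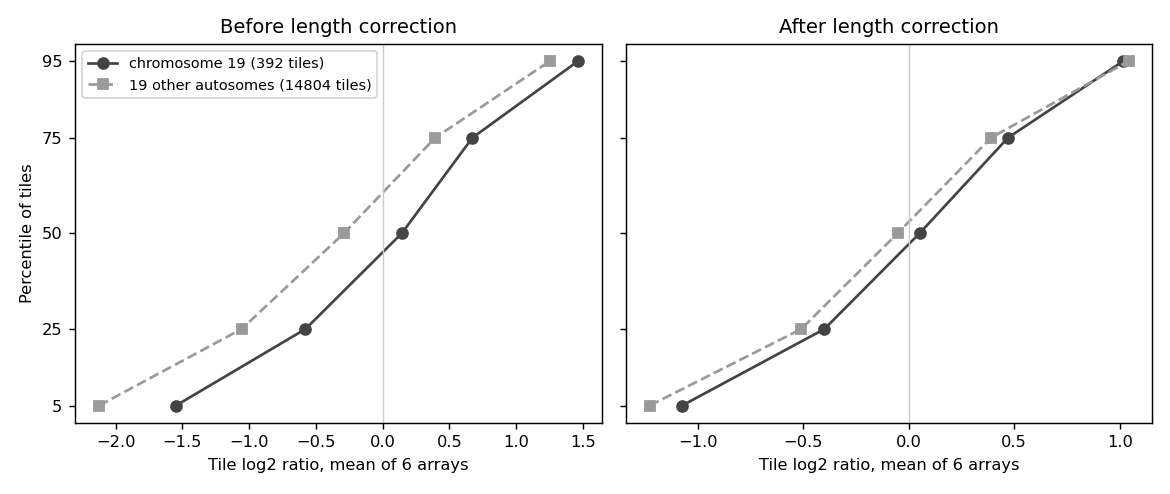
Percentiles of tile ratios (log2) on chromosome 19 and on the other autosomes, uncorrected and length corrected. The difference is 0.58 at the 5th percentile and 0.21 at the 95th before correction, and 0.15 and -0.025 after it.

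On every one of the 6 arrays, the tiles that exceeded the median of the array by more than 2-fold numbered 8 of 392 on chromosome 19, or 2.04%, with a share of 1.71% over all tiles of the series. Tiles more than 2-fold below it on all 6 arrays numbered 31, or 7.91%, against 18.4% over all tiles. The first count rested on cadmium sample 2, on which tile ratios were compressed. Without that sample 54 tiles, or 13.8%, were more than 2-fold above on the other 5 arrays against 8.35% on the other autosomes, and 47, or 11.99%, were more than 2-fold below against 23.3%. The SD of chromosome 19 tile ratios was 0.63 on cadmium sample 2 and 0.94 to 1.00 on the others. After length correction 5 tiles, or 1.28%, were above on all 6 arrays against 1.46% on the other autosomes, and 5, or 1.28%, below against 3.35%. Without cadmium sample 2 the corrected counts were 17, or 4.34%, above against 4.56%, and 18, or 4.59%, below against 7.06%.

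The 4 highest tiles with at least 4 probes, ordered by mean ratio, are described next. The tile chr19:16343894-16345334 (rn4, 4 probes) stood at 2.12, 2.20 and 2.50 in the control samples and 2.30, 1.17 and 2.33 in the cadmium samples, with a mean of 2.10 ± 0.47 (SD, n = 6). Cadmium sample 2 was far below the other 5 arrays, and those of the 2 groups overlapped. Its immunoprecipitated signal of 3.18 and its input signal of 0.99 were both above the array median. The tile chr19:52833858-52835327 (5 probes) stood at 2.02, 2.05 and 2.42 in the control samples and 2.05, 1.13 and 2.11 in the cadmium samples. The tiles chr19:585800-586593 and chr19:30167443-30169140 both had a mean of 1.75. The latter had an input signal of -0.73 and an immunoprecipitated signal of 1.097, so its ratio came from low input as well as capture. All 4 consisted of probes with a mean length of at most 45.7 bases, and after length correction their ratios were 1.16, 1.23, 1.35 and 1.27. With loess normalization within arrays the uncorrected ratios of the top 2 were 0.95 and 1.01, and that of chr19:585800-586593 was 0.84.

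Among the lowest, chr19:17944315-17945772 (6 probes) stood at -2.69, -2.81 and -2.58 in the control samples and -2.57, -1.96 and -2.18 in the cadmium samples, with a mean of -2.47 ± 0.33. The cadmium values all lay above the control values, by very little for cadmium sample 1, and cadmium sample 2 was nearest to 0. Its group difference was 0.46 (unadjusted p = 0.021, adjusted p = 0.856, limma). The tile chr19:9884731-9886418 had a mean of -2.30, chr19:14980301-14981952 of -2.29 and chr19:14886465-14888205 of -2.09. All 4 had an input signal above the median, from 0.73 to 1.40, and an immunoprecipitated signal below it, from -1.66 to -0.60. With length corrected they stood at -1.32, -1.07, -1.13 and -1.27. When a spot also had to be above background in the immunoprecipitated channel, the value of chr19:14980301-14981952 turned to 1.03, and the other 3 stood at -1.52, -0.71 and -1.01. With normexp background correction all 4 lay between -1.46 and -1.25.

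Once length was corrected, other tiles with at least 4 probes led. The highest was chr19:35307289-35308725 (6 probes) at 1.87 ± 0.25, whose uncorrected values were 1.49, 1.52 and 1.83 in the control samples and 1.79, 1.28 and 1.39 in the cadmium samples. It was followed by chr19:37301330-37302778 at 1.52, chr19:9830342-9831924 at 1.48 and chr19:35460642-35462403 at 1.43, whose uncorrected ratios were 0.76, 1.00 and 0.88. Tile chr19:37301330-37302778 ranked 86 before the correction and 3 after it over all 392. The lowest was chr19:311508-312916 (9 probes) at -2.19 ± 0.43, with an uncorrected mean of -1.71. Then came chr19:53989862-53991617 at -1.60, all of whose probes had 45 bases, chr19:53543911-53546812 at -1.45 and chr19:36716858-36718595 at -1.37. Of these, chr19:53989862-53991617 had an uncorrected ratio of -0.65 and ranked 306 before the correction. Several of these levels depended on the processing: chr19:37301330-37302778 stood at 0.35 with loess, and chr19:53989862-53991617 at -0.76 with flagged spots kept.

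**Figure D4:**
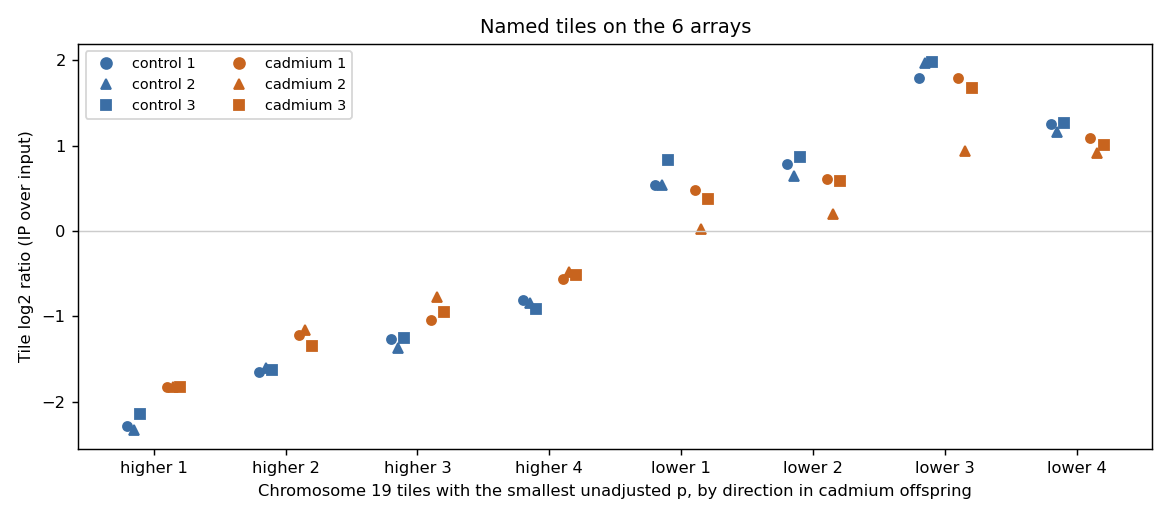
Methylation ratio (log2) on each of the 6 arrays for the chromosome 19 tiles with the smallest unadjusted p by limma, 4 in each direction. Control and cadmium samples are drawn apart. In chr19:55795760-55797343 the control samples stand at -2.28, -2.34 and -2.15 and the cadmium samples at -1.83, -1.82 and -1.83.

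The difference to other autosomes depended on how many probes of a tile were kept. This count reflects the filters on dim and outlying spots as well as the extent of a tile. For example, chr19:16343894-16345334 kept 4 of its 8 probes. The 73 tiles of 3 to 5 probes stood at 0.19 against -0.46 elsewhere, a difference of 0.65 ± 0.078, and of 0.18 ± 0.023 after length correction. The 210 tiles of 6 to 8 probes differed by 0.42 ± 0.054, corrected 0.13 ± 0.019. The 97 tiles of 9 to 12 probes differed by 0.21 ± 0.023, corrected -0.012 ± 0.019, and the 12 tiles of at least 13 probes by 0.23 ± 0.037, corrected -0.094 ± 0.015. The corrected lead was therefore found in tiles with up to 8 kept probes and not in those with more. The tile with the most kept probes, chr19:11114664-11150739 with 161, stood at -0.71 ± 0.079 and at -0.40 after correction. The next 2 by that count, chr19:25651933-25688676 with 133 probes and chr19:25617400-25650919 with 126, had ratios of 0.14 and 0.24, and corrected ratios of 0.15 and -0.22.

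Position within a tile mattered as well. In bins of 200 bp from the tile centre, the uncorrected ratio of chromosome 19 was -0.34 at -800 bp, 0.17 at the centre and -0.36 at 800 bp, against -0.60, -0.38 and -0.48 on the other autosomes. The uncorrected difference was largest at the centre and 200 bp beyond it, at 0.54 and 0.55, and smallest at 800 bp, at 0.12. After length correction the differences from -800 to 400 bp lay between 0.020 and 0.15, and at 600 and 800 bp they were -0.055 ± 0.016 and -0.041 ± 0.025. Centre and flank thus differed more on chromosome 19 than elsewhere before correction. The strand of any gene is unknown here, so the 2 sides of a tile cannot be read as upstream and downstream.

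**Figure D5:**
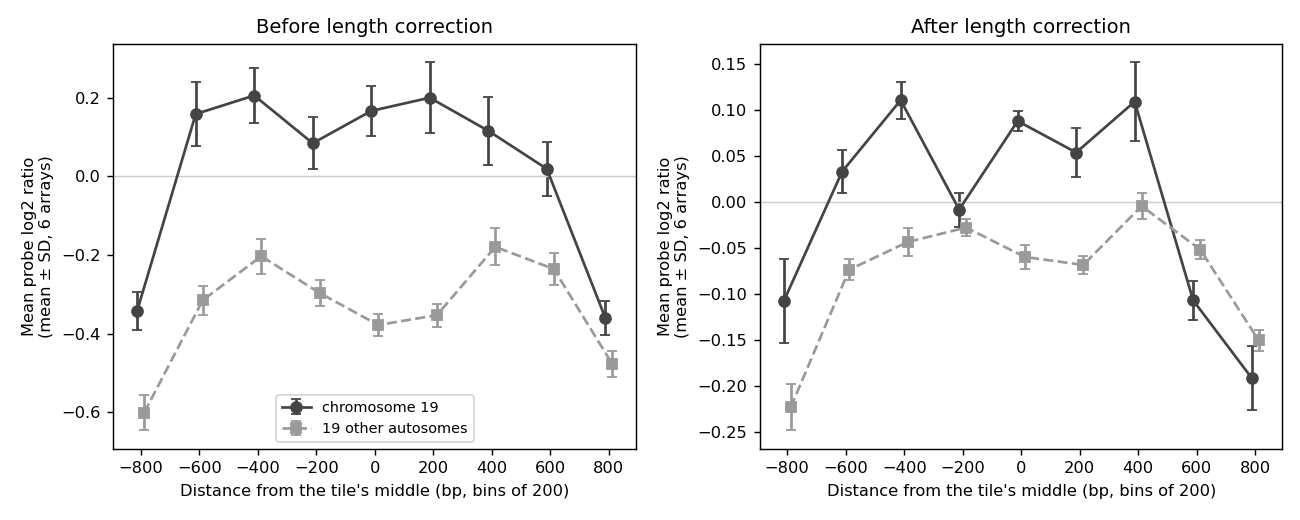
Methylation ratio (log2) by distance from the tile centre in bp for chromosome 19 and the other autosomes, uncorrected and length corrected. In the centre bin chromosome 19 stands at 0.17 before correction and the other autosomes at -0.38, and both are lowest in the outermost bins.

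Along the chromosome, tiles were taken in 12 windows of 5 Mb holding 11 to 69 tiles. The highest was chr19:45000001-50000000 with 26 tiles at 0.45 ± 0.15 (SD over 6 arrays), or 0.25 ± 0.081 after length correction. The window chr19:25000001-30000000, with 42 tiles, stood at 0.41 ± 0.12, corrected 0.22. The lowest was chr19:40000001-45000000 with 31 tiles at -0.40 ± 0.060, corrected -0.19 ± 0.068, and it borders the highest one. In 11 of the 12 windows the mean was above that of the other autosomes, and in 9 after correction. Leaving out each window in turn gave a difference of 0.36 to 0.44, or 0.071 to 0.113 corrected. Among 470 windows with at least 5 tiles on other autosomes, 3 were higher than the highest of chromosome 19.

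Tiles lay slightly closer together on chromosome 19, with a median gap of 28354.5 bp against 29951 bp, and 21.7% against 19.5% had a neighbour within 10 kb. There were 6.63 tiles per Mb, rank 8 among autosomes. The ratios of neighbouring tiles correlated at r = 0.17 over 391 pairs, against 0.29 on the other autosomes, and at 0.093 against 0.060 after length correction. Neighbouring tiles are measured on the same arrays, and these correlations are given as a description. Between arrays, chromosome 19 tile ratios correlated at 0.980 to 0.991 without cadmium sample 2 and at 0.929 to 0.950 with it.

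Across the 20 autosomes, the share of 45-base probes and the mean ratio had r = 0.942 and rho = 0.872, and with the corrected ratio r = 0.367 and rho = 0.433. The G+C content of all promoters and the mean ratio had r = 0.690 and rho = 0.710, and with the corrected ratio r = 0.251 and rho = 0.340. For promoters of named genes, the subset chosen after its values were seen, these were r = 0.869 and rho = 0.830, and r = 0.395 and rho = 0.451. Without chromosome 19, r with the mean ratio was 0.933 for 45-base probes, 0.795 for all promoters and 0.830 for named genes. With the corrected ratio it was then 0.244, 0.282 and 0.252. All 20 points come from the same 6 arrays, so these correlations are a description.

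The comparison of the groups asks whether gestational cadmium chloride changed methylation of chromosome 19 in granulosa cells of the offspring. It took no part in choosing the chromosome. No tile of chromosome 19 passed the threshold: by limma with Benjamini-Hochberg adjustment over 15846 tiles, 0 of 392 had an adjusted p under 0.05, with a background of 0.00631%, and the lowest adjusted p on chromosome 19 was 0.856. Without adjustment 12 tiles, or 3.06%, had a p under 0.05, of which 11 were higher and 1 lower in the cadmium samples, against 3.57% over all tiles, 3.26% higher and 0.303% lower. The share on chromosome 19 was therefore close to the background. Differences ranged from -0.45 to 0.71, and 48.2% (189 tiles) were higher in the cadmium samples against 56.2% over all tiles. The median difference was -0.018 against 0.028. The median half-width of the 95% interval of a tile was 0.31, without adjustment for the number of tiles. Larger differences, up to 0.71, did not pass the adjusted threshold either. With 3 arrays a group, the lack of calls therefore does not exclude differences of that size. The groups did not overlap in 39 tiles, of which 26 were higher and 13 lower in the cadmium samples, 9.95% against 10.2% over all tiles, where 7.95% were higher and 2.28% lower. When cadmium sample 2 was left out of the limma fit, 0 tiles of chromosome 19 passed and 20 had an unadjusted p under 0.05. The lowest adjusted p was then 0.585, and no share over all tiles is given for that fit.

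Other measures gave the same count, except for a fit with array weights. With length correction 0 tiles passed the adjusted threshold and 13 had an unadjusted p under 0.05, against 3.05% over all tiles. In the input channel alone 0 passed and 3 were under the unadjusted threshold, with a background of 0.00631% and 1.56%, and in the immunoprecipitated channel 0 passed and 11 were under it, all higher, with a background of 0% and 3.13%. Tested one by one in limma, 0 of 3309 probes passed and 86 were under the unadjusted threshold, 2.60% against 3.13% over all probes, with a lowest adjusted p of 0.910. With array weights, which give less influence to arrays that deviate, 3 of 392 tiles of chromosome 19 passed by limma. Over all tiles 106 of 15846 passed, or 0.669%, so the share on chromosome 19 was close to the background. The 3 tiles were chr19:17944315-17945772 (adjusted p = 0.0492, limma), chr19:36270658-36272286 (adjusted p = 0.0446) and chr19:55795760-55797343 (adjusted p = 0.0286). In the second of these the control samples stood at -1.75 ± 0.13 and the cadmium samples at -1.30 ± 0.34.

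The tiles with the smallest p were read array by array. Tile chr19:55795760-55797343 (4 probes) stood at -2.28, -2.34 and -2.15 in the control samples and at -1.83, -1.82 and -1.83 in the cadmium samples. The groups did not overlap, and the difference was 0.43 (SE 0.11, 95% interval 0.18 to 0.68), with an unadjusted p of 0.0034 by limma and an adjusted p of 0.856. It was 0.48 in the scan batch of control samples 1 and 2 with cadmium sample 1, and 0.32 in that of control sample 3 with cadmium sample 3. The immunoprecipitated channel differed by 0.43 and the input by -0.013. The difference depended on the processing: it was 0.083 with no filter on dim probes, 0.069 with arrays set to equal spread, 0.062 in the authors' deposited table and 0.0099 with normexp background correction. Tile chr19:25580733-25582495 (4 probes) stood at -1.65, -1.60 and -1.63 against -1.22, -1.17 and -1.35, a difference of 0.38 (SE 0.11), made up of 0.19 in the immunoprecipitated channel and -0.19 in the input. Its difference was -0.035 with normexp background correction and 0.041 in the authors' deposited table. Tile chr19:22729740-22731310 (4 probes) stood at -1.27, -1.37 and -1.25 against -1.05, -0.78 and -0.95, a difference of 0.38 (SE 0.12), or 0.081 with normexp. Tile chr19:53436348-53438017 (7 probes) stood at -0.81, -0.84 and -0.91 against -0.56, -0.48 and -0.52, a difference of 0.33 (SE 0.11), with -0.38 in the input and -0.037 in the immunoprecipitated channel. None of the 4 passed with adjustment (adjusted p = 0.856 for each, limma), and all lay below 0 on each array. In a further alternative, spots also had to be above background in the immunoprecipitated channel. Then chr19:55795760-55797343, chr19:25580733-25582495 and chr19:22729740-22731310 kept too few probes to be tested, and chr19:53436348-53438017 differed by 0.34.

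In the other direction, tile chr19:20073507-20075064 (8 probes) stood at 0.54, 0.54 and 0.83 in the control samples and at 0.48, 0.024 and 0.37 in the cadmium samples, a difference of -0.34 (SE 0.15). Within scan batches it was -0.060 and -0.46, and with the median of probes in place of the mean -0.072. Without cadmium sample 2 it was -0.21. Tile chr19:10675949-10677656 (6 probes) stood at 1.79, 1.97 and 1.98 against 1.79, 0.93 and 1.68, a difference of -0.45, with cadmium sample 2 by far the lowest value, and of -0.18 without that sample. Tiles chr19:35738967-35740643 and chr19:26088162-26089473 differed by -0.30 and -0.23, and by -0.17 and -0.18 without cadmium sample 2. The latter differed by -0.044 with arrays set to equal spread. The adjusted p was 0.856 for each of the 4 by limma, and all 4 lay above 0 in the control samples.

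The median group difference varied with the control mean of the tile, and its sign did so only when cadmium sample 2 was included. Among chromosome 19 tiles whose control mean was under -2 (6 tiles) the median difference was 0.41, from -2 to -1 (53 tiles) 0.21, from -1 to 0 (118 tiles) 0.077, from 0 to 1 (156 tiles) -0.085 and over 1 (59 tiles) -0.21. Without cadmium sample 2, whose tile ratios had the smaller spread given above, the medians were 0.30, 0.082, 0.058, 0.026 and 0.038, all above 0. The other autosomes followed the same course, with medians of 0.26, 0.17, 0.055, -0.072 and -0.21, or 0.12, 0.065, 0.038, 0.027 and 0.0085 without that sample. These 2 sets of medians give the pattern with and without that sample. Tiles were grouped by the control mean that the difference also subtracts, so noise in that mean can tilt the medians the same way. Neither part was tested.

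The level of chromosome 19 differed between the groups by less than the spread of the arrays. The chromosome mean was 0.056 ± 0.033 in the control samples and 0.051 ± 0.095 in the cadmium samples (SD, n = 3 each), a difference of -0.0052 with an exact permutation p of 0.9, two-sided. The smallest p that 3 arrays against 3 allow is 0.1. Chromosome 19 minus the other autosomes differed by -0.035 between the groups (exact permutation p = 0.7), with 0.017 and -0.010 within scan batches and 0.0042 without cadmium sample 2. After length correction that difference was 0.0023 (exact permutation p = 0.8), with 0.018 and 0.0021 within batches and 0.011 without cadmium sample 2. The corrected difference was 0.011 with quantile normalization and 0.017 with arrays set to equal spread. Both had an exact permutation p of 0.1, the smallest possible, while other alternatives given below changed its sign. In the input channel, without correction, chromosome 19 minus the other autosomes differed by 0.026 (exact permutation p = 0.6). In the immunoprecipitated channel it differed by -0.0086 (exact permutation p = 0.9). Cadmium sample 2 was alone in its scan batch, so its batch and its own deviation cannot be told apart.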

How the data were processed

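Each of the 6 two-colour Agilent arrays gave one spot intensity per dye, deposited by the authors as scanner output of Feature Extraction 11.0.1.1 with background subtracted and a dye scale applied, per the file headers, on rn4 positions. The deposited table of log2 ratios from the authors, with scaling and smoothing not given in the sources used here, served as an alternative only. Flags of 0 or 1 per spot, also deposited, marked dim and outlying spots. The ratio was log2 of Cy5 over Cy3, centred on the median of all probes that are no controls. Probes were kept where no array of the 6 had a dim input spot or an outlier flag. Tiles held at least 3 kept probes, averaged. Groups were compared with limma 3.58.1 in R 4.3.3, p-values being adjusted by Benjamini-Hochberg across the whole table of tiles or of probes (threshold 0.05), and with exact permutation tests for single values. The number of arrays, 3 per group, limits the precision. Scripts were tested on simulated data. The chromosome, the lists and the alternatives were chosen with earlier results of these data known. Named tiles had at least 4 probes: the 4 highest and 4 lowest by ratio before and after length correction, and the 4 smallest p-values in each direction. Arrays fell into 3 scan times: cadmium sample 2 alone; control samples 1 and 2 with cadmium sample 1; control sample 3 with cadmium sample 3.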

Additional observations from a re-analysis of the deposited data

How the results depend on the processing

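Chromosome 19 minus the other autosomes was 0.40 and ranked 1 of 20 under all 20 alternatives run. It was 0.22 when both channels had to be above background, 0.47 with flagged spots kept, 0.26 with loess, 0.23 with normexp background correction and 0.32 in the authors' deposited table, and 0.397 to 0.422 with each array left out. After length correction the value of 0.094 became 0.12 with both channels above background, 0.127 with flagged spots kept, 0.137 with loess, 0.157 in the deposited table, 0.166 with the median of probes, 0.077 with at least 5 probes a tile, 0.134 with the mean of each length and 0.051, rank 3, with a mean over probes, and it was 0.0916 to 0.0977 with each array left out. It ranked 1 in 22 of 23 alternatives. The uncorrected group difference of -0.035 changed sign with quantile normalization (0.0098), with equal spread (0.025) and in the deposited table (0.0051), and ran from -0.060 to 0.0042 with each array left out. The corrected difference of 0.0023 changed sign with no filter on dim probes (-0.0018), both channels above background (-0.012), flagged spots kept (-0.0022), loess (-0.0079), normexp (-0.0032), the median of probes (-0.0028), a shorter gap between probes (-0.0042) and the mean of each length (-0.0026), and ran from -0.0042 to 0.011 with each array left out. With quantile normalization and with equal spread the corrected difference was 0.011 and 0.017, each with an exact permutation p of 0.1. The causes were not tested. Cadmium against control gave 0 tiles in 24 of 25 alternatives and 3 with array weights. Unadjusted counts ran from 2 tiles, with both channels above background and with equal spread, to 56 with array weights. No share over all tiles is given for either end of this range, so it cannot be set against a background. The ratio of chr19:14980301-14981952 was 1.03 with both channels above background, and the group difference of chr19:25580733-25582495 was -0.035 with normexp. Of 206 levels of named tiles over the alternatives, 146 stayed within the spread between arrays, 59 moved further and 1 changed sign; of 191 group differences 189 kept direction and call, 1 passed the threshold and 1 changed sign. A limma fit that allowed each scan time its own level called 0 tiles, and 36 had an unadjusted p under 0.05. Its lowest adjusted p was 0.143, and it called 0 probes, with 198 under the unadjusted threshold. When scan time entered limma as a random term, 0 tiles were called, 32 were under that threshold and the lowest adjusted p was 0.161. No share over all tiles is given for these fits. With the replicate number as a block, 0 tiles passed by limma (15 at an unadjusted p under 0.05), and 0 probes (108), again without a share over all. Whether the numbers pair the samples is not known. Same-numbered samples correlated at -0.19, -0.10 and 0.37 in their deviations, and other pairs at -0.40 to 0.34, which cannot settle it. Centring on kept probes was added after the data were seen.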
